A study of Mus musculus with 4 samples.

Results

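Laminins, nidogens and perlecan are the non-collagen proteins that build basement membranes, and the counts of 10 of their genes were compared between WT and *Patz1* KO motor neuron (MN) cultures. The 10 genes, out of 23420 gene symbols counted, were *Lama1*, *Lama2*, *Lama4*, *Lama5*, *Lamb1*, *Lamb2*, *Lamc1*, *Nid1*, *Nid2* and *Hspg2*. They were chosen by symbol from a list proposed with the measured WT and *Patz1* KO values of these libraries already known. Their difference between the genotypes is therefore a description. Whether a gene was called in the fit across all genes is stated for them without a p-value and supports nothing. The further gene lists were also drawn up with earlier results known, and their genes carry the adjusted p of the fit across all genes.

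All 4 libraries came from E14 cells, a mouse embryonic stem cell (ESC) line, that formed embryoid bodies and received 1 µM retinoic acid and 0.5 µM of the smoothened agonist SAG from day 2, which patterns them into cervical MNs. 2 libraries were WT and 2 were *Patz1* KO, made by cutting the gene for the zinc finger protein PATZ1 with CRISPR, and the replicates of the study are independent differentiations. The labels do not say which KO clone gave each library, so a difference between genotypes and a difference between clones cannot be told apart. The sample titles name ESCs, while the source and cell type name MNs, and no sort for MNs is described. Whole cultures were thus measured, in which fewer cells of a type and less RNA per cell cannot be told apart.

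Basement membranes are thin sheets on which epithelial, endothelial, muscle and neuroepithelial cells rest. A laminin is a cross-shaped trimer of 1 alpha, 1 beta and 1 gamma chain that polymerises on the cell surface, where integrins and dystroglycan hold it. Nidogens bind the gamma 1 chain and tie the laminin sheet to the type IV collagen network, and perlecan adds heparan sulfate chains that hold growth factors. In embryoid bodies the outer endoderm is known for secreting laminins rich in the alpha 1, beta 1 and gamma 1 chains, and mesenchyme and endothelium are further sources.

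The sequences below show stretches by which the most abundant alpha, beta and gamma chains of WT MN cultures are known to touch cells or nidogen. They are given because the results turn on which chain prevails. Each is read 5′ to 3′ in the coding direction from GENCODE transcripts on GRCm38 (mm10), with the codons of the named peptide in capitals.
*Lama1*, IKVAV, an adhesive peptide: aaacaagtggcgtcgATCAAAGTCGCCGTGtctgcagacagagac
*Lamb1*, YIGSR, an adhesive peptide: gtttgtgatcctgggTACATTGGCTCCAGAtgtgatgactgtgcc
*Lamc1*, NIDPNAV, part of the nidogen-binding module: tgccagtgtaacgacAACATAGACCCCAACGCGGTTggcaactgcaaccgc

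The *Lama1* stretch spans exons 44 and 45 (chr17:67799123-67800788, plus strand), and its capitals encode residues 2123 to 2127 of a chain of 3083. The *Lamb1* stretch spans exons 20 and 21 (chr12:31304732-31305789, plus strand), and its capitals encode residues 998 to 1002 of 1834. The *Lamc1* stretch lies in exon 14 (chr1:153243346-153243396, minus strand), and its capitals encode residues 831 to 837 of 1607. The letters YIGSR were not in the longest annotated chain of *Lamb2*, nor IKVAV in those of *Lama2*, *Lama4* or *Lama5*.

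The libraries held 14769104 to 23881522 counts, and 14269 genes passed the filter on low counts and were tested with edgeR (quasi-likelihood, Benjamini-Hochberg adjustment). *Patz1* itself had 1363 and 1499 counts in WT against 1154 and 714 in *Patz1* KO (log2 fold change -1.04 ± 0.095, standard error, SE). A guide that disrupts the reading frame need not remove the transcript. Between replicates the biological coefficient of variation common to all genes was 7.71%, and the median log2 fold change of all tested genes was -0.0014. All 10 genes passed the filter, with 39 to 4711 counts in a library. Fold changes below are *Patz1* KO over WT, and CPM are counts scaled to a common library size with TMM factors.

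Of the 10 genes, 8 passed an adjusted p below 0.05 and were lower in *Patz1* KO MN cultures (called lower). None was called higher, and *Lama4* and *Lamb2* were not called. Over all tested genes 23.8% were called lower and 24.1% higher, and nothing is read from the comparison, since the genes were chosen with this contrast known. The median log2 fold change of the 10 was -0.85. Neither *Patz1* KO library reached the lower WT library in 9 of them, which held for 37.2% of all tested genes. Their summed level was 783 and 822 CPM in WT against 400.3 and 337 CPM in *Patz1* KO. *Lamb1* and *Nid2* differed by more than 7-fold, while the next largest difference, in *Lamc1*, was 2.35-fold.

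**Figure D1:**
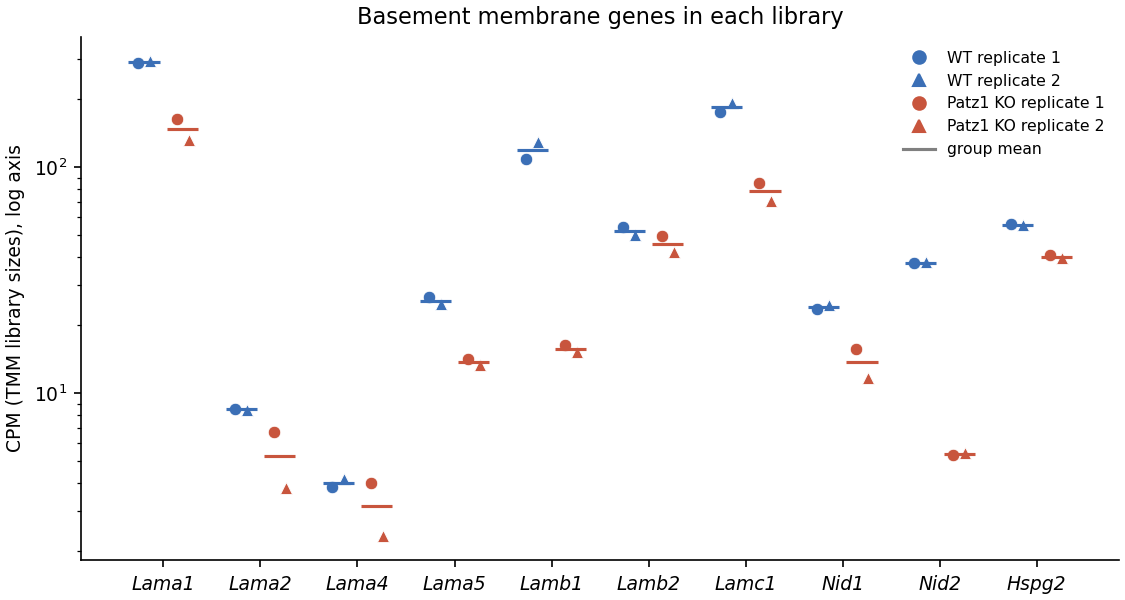
Level of each gene in each library as CPM on a log axis, with WT in blue, *Patz1* KO in red, circles for replicate 1, triangles for replicate 2 and bars for group means. The groups are far apart for *Lamb1* and *Nid2*, close for *Lamb2* and *Hspg2*, and overlap for *Lama4*.

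The alpha chains carry the globular end that binds cells. *Lama1*, the alpha chain of the early embryo (chr17:67697259-67822647, plus strand), had 288 and 296 CPM in WT against 163 and 132 CPM in *Patz1* KO. The groups did not overlap, and the log2 fold change was -0.99 ± 0.100 (SE), or 1.98-fold lower. *Lama5*, the alpha chain of most mature epithelial and vascular membranes (chr2:180176373-180225859, minus strand), was far less abundant, with 26.5 and 24.8 CPM in WT against 14.2 and 13.4 CPM in *Patz1* KO. It was likewise separated between the groups, at a log2 fold change of -0.89 ± 0.12.

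*Lama2*, the alpha chain of muscle and Schwann cell membranes (chr10:26980036-27619758, minus strand), had 127 and 134 counts in WT (8.53 and 8.43 CPM) against 163 and 64 counts in *Patz1* KO (6.72 and 3.82 CPM). The *Patz1* KO libraries were farther from each other than *Patz1* KO replicate 1 was from WT. The log2 fold change of -0.65 ± 0.23 became -0.33 without *Patz1* KO replicate 2 and was then not called. It was also not called without WT replicate 1 (-0.65), without WT replicate 2 (-0.66) or by DESeq2's Wald test (-0.66). *Lama4*, the alpha chain of mesenchymal and endothelial membranes (chr10:38965515-39110188, plus strand), had 57 and 66 counts in WT (3.83 and 4.15 CPM) against 97 and 39 in *Patz1* KO (4.0 and 2.33 CPM). *Patz1* KO replicate 1 lay between the WT libraries and replicate 2 below both. The log2 fold change was -0.30 ± 0.27, with a 95% interval from -0.83 to 0.23, and it was 0.0094 without *Patz1* KO replicate 2 and -0.77, a call, without *Patz1* KO replicate 1.

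The beta chains parted most. *Lamb1*, the beta chain of early embryonic and most epithelial laminins (chr12:31265234-31329644, plus strand), was counted 1622 and 2045 times in WT and, in the deeper *Patz1* KO libraries, 395 and 255 times. This was 109 and 129 CPM in WT against 16.3 and 15.2 CPM, and the log2 fold change was -2.91 ± 0.11, or 7.52-fold lower. *Lamb2*, its paralog in synaptic, vascular and glomerular membranes (chr9:108479736-108490530, plus strand), had 54.1 and 50.3 CPM in WT against 49.5 and 42.0 CPM in *Patz1* KO. The groups lay side by side, with *Patz1* KO replicate 1 just below WT replicate 2. The log2 fold change of *Lamb2* was -0.19 ± 0.10, with a 95% interval from -0.39 to 0.018, and it was -0.31, a call, without *Patz1* KO replicate 1.

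*Lamc1*, the gamma chain of most trimers of the chains above (chr1:153218922-153332786, minus strand), had 176 and 192 CPM in WT against 85.2 and 71.1 CPM in *Patz1* KO. Both *Patz1* KO libraries were far below WT, and the log2 fold change was -1.23 ± 0.098. It thus lay between those of *Lamb1* and *Lamb2*.

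Of the nidogens *Nid2* differed more, and both were called lower. *Nid2* (chr14:19751265-19811787, plus strand) had 559 and 604 counts in WT against 129 and 91 in *Patz1* KO, which is 37.5 and 38.0 CPM against 5.32 and 5.43 CPM. Replicates of *Nid2* were close to each other in both groups, and the log2 fold change was -2.81 ± 0.13, or 7.03-fold lower. *Nid1* (chr13:13437551-13512269, plus strand) had 23.6 and 24.5 CPM in WT against 15.7 and 11.7 CPM in *Patz1* KO. The groups of *Nid1* did not overlap, with a log2 fold change of -0.80 ± 0.14. Over 437 bases *Nid2* overlaps exons of *Rtraf* on the other strand, listed as *2700060E02Rik*, whose log2 fold change was -0.00 (adjusted p = 0.996, edgeR). *Nid1* and *Lama2* overlap short stretches of the other-strand genes *Gm48682* and *Gm48084*, and the strand setting of the counting is not given in the sources used here.

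*Hspg2*, which encodes the perlecan core protein (chr4:137468769-137570630, plus strand), had 55.8 and 55.4 CPM in WT against 40.7 and 39.7 CPM in *Patz1* KO. The difference was small but separated, because replicates were very close, and the log2 fold change was -0.47 ± 0.095, or 1.38-fold lower.

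**Figure D2:**
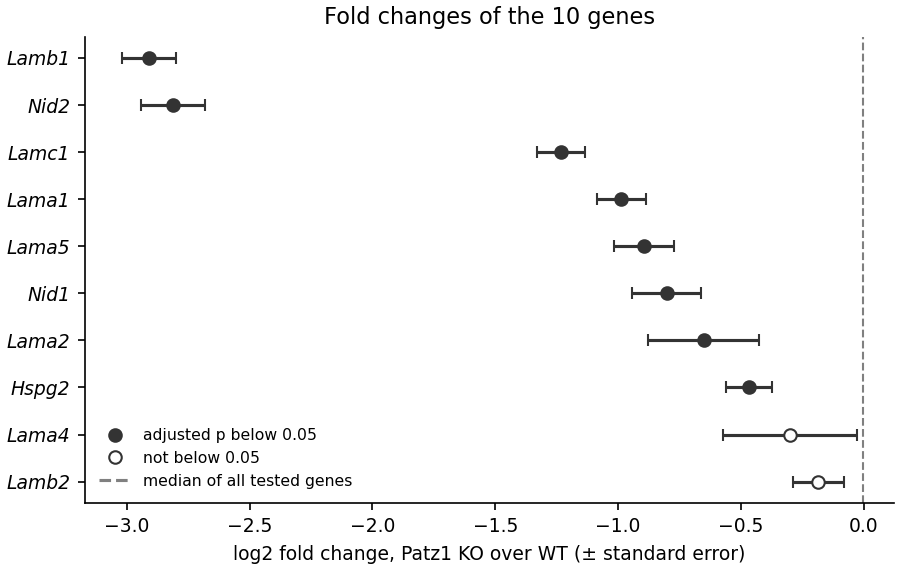
Log2 fold change of each gene, *Patz1* KO over WT, with bars of 1 standard error, filled where the adjusted p was below 0.05, and the dashed line at the median of all tested genes. *Lamb1* and *Nid2* stand near -3, the other called genes lie between -1.23 and -0.47, and *Lama4* and *Lamb2* lie closest to the line.

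*Patz1* KO replicate 2 was lower than *Patz1* KO replicate 1 in 9 of the 10 genes, with a median log2 difference of -0.25 and a range from -0.82 to 0.028. Over all tested genes with an annotated length the median was -0.015, and *Patz1* KO replicate 2 was the lower in 52.6% of them. All 10 genes have at least 5.17 kb of annotated exon. Over the 6129 tested genes with at least 5 kb the median was -0.065, and replicate 2 was the lower in 62.7%. These long genes had a median log2 fold change between the genotypes of -0.025, and 27.1% of them were called lower. The part of this difference between libraries in the results was not tested.

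To compare levels between chains, CPM were divided by the length of annotated exon in kb (CPM per kb). In WT the order was *Lama1* with 30.2 ± 0.590 (SD, n = 2), *Lamc1* with 22.2 ± 1.36, *Lamb1* with 12 ± 1.41, *Lamb2* with 8.58 ± 0.449 and *Nid2* with 7.30 ± 0.063. Then came *Hspg2* with 3.89 ± 0.019, *Nid1* with 3.47 ± 0.091, *Lama5* with 2.26 ± 0.104, *Lama2* with 0.519 ± 0.0043 and *Lama4* with 0.331 ± 0.019. No neighbours in this order overlapped in their WT libraries. In *Patz1* KO the order was *Lama1* with 15.2 ± 2.24, *Lamc1* with 9.45 ± 1.21, *Lamb2* with 7.52 ± 0.880, *Hspg2* with 2.81 ± 0.050, *Nid1* with 1.97 ± 0.406, *Lamb1* with 1.59 ± 0.078, *Lama5* with 1.21 ± 0.052, *Nid2* with 1.04 ± 0.014, *Lama2* with 0.323 ± 0.126 and *Lama4* with 0.262 ± 0.098. Among these, only *Lama2* and *Lama4* overlapped in their *Patz1* KO libraries. *Lamb1* and *Nid2* had thus passed from above to below *Hspg2* and *Nid1*. The order also depends on the length used: with coding length in WT, *Lamc1* (37.4 CPM per kb) came above *Lama1* (31.6), and *Nid1* (6.45) above *Hspg2* (4.23), while *Lamb1* and *Nid2* again passed from above to below both *Hspg2* and *Nid1*.

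The most abundant alpha chain was the same in both genotypes. *Lama1* made up 90.4% and 91.0% of the summed alpha chain level per kb in WT against 89.4% and 89.5% in *Patz1* KO. The most abundant beta chain was not the same. *Lamb1* made up 55.2% and 61.1% of the beta chain level in WT and 16.8% and 18.2% in *Patz1* KO, with *Lamb2* as the remainder. *Nid2* made up 68.1% and 67.5% of the nidogen level in WT and 31.3% and 38.4% in *Patz1* KO. With coding length in place of exon length, a choice made after seeing the data, the mean share of *Lamb1* was 69.4% in WT and 25.7% in *Patz1* KO. That of *Nid2* was then 57.6% and 25.7%, so the prevailing paralog of both families was the same under either length.

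**Figure D3:**
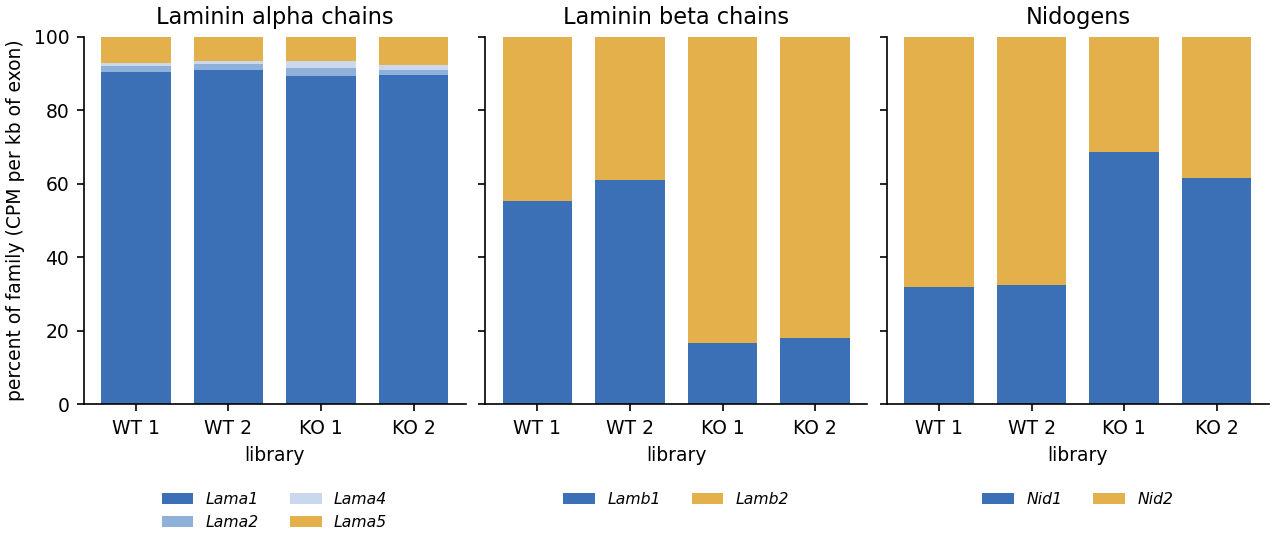
Share of each gene in the summed level of its family, in percent of CPM per kb of exon, for each of the 4 libraries. *Lama1* fills about 90% of the alpha chain bar in every library, while *Lamb1* falls from over 55% to under 19% of the beta chains and *Nid2* from over 67% to under 39% of the nidogens.

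The summed level of the alpha chains was 33.3 ± 0.501 CPM per kb (SD, n = 2) in WT and 17.0 ± 2.52 in *Patz1* KO. The summed beta chain level was 20.6 ± 0.958 and 9.11 ± 0.958, and the level of *Lamc1*, the sole gamma chain among the 10, was 22.2 ± 1.36 and 9.45 ± 1.21. The ratio of beta chains to *Lamc1* was 0.934 and 0.916 in WT against 0.951 and 0.982 in *Patz1* KO. Its direction turned with coding length, from a mean of 0.829 in WT to 0.702 in *Patz1* KO, so no change in this ratio is read. The ratio of alpha chains to *Lamc1* was 1.55 and 1.45 in WT against 1.82 and 1.77 in *Patz1* KO, and with coding length it also was higher in *Patz1* KO (means of 0.951 and 1.15).

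Of the laminin chains outside the 10, *Lama3* and *Lamb3*, chains of skin laminin, had 3 to 11 counts in each library and did not pass the filter. *Lamc3* had 18 and 13 counts in WT against 14 and 7 in *Patz1* KO (log2 fold change -0.98 ± 0.47, adjusted p = 0.0956, edgeR).

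Type IV collagen is the network that nidogens tie to laminin. Of 5 chains tested, 2 fell, 1 rose and 2 were not called, with a median log2 fold change of -0.48. The shares over all tested genes were 23.8% lower and 24.1% higher. *Col4a1*, which forms the common network with *Col4a2* and overlaps its start on the other strand, had 477 and 560 CPM in WT against 52.4 and 57.9 CPM in *Patz1* KO, and *Col4a2* had 198 and 226 CPM against 35.5 and 34.9 CPM. They fell by 3.23 ± 0.11 and 2.59 ± 0.097 on the log2 scale (adjusted p = 1.18e-12 and 1.99e-12, edgeR). *Col4a5*, a chain of another type IV trimer, rose from 26.2 and 22.5 CPM to 55.2 and 49.3 CPM, a log2 fold change of 1.11 ± 0.11 (adjusted p = 2.71e-07, edgeR).

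Of 17 tested genes for other proteins of or near basement membranes, 11 fell, 2 rose and 4 were not called, with a median of -0.81. Among all tested genes 23.8% were called lower and 24.1% higher. *Frem2*, a subunit of the Fraser complex under epithelia, had 491 and 617 counts in WT against 91 and 69 in *Patz1* KO, and fell by 3.20 ± 0.15 on the log2 scale (adjusted p = 2.49e-11, edgeR). *Tinagl1*, a secreted laminin-binding protein, fell by 2.03 ± 0.35 (adjusted p = 0.000134, edgeR) from 42 and 45 counts to 15 and 13. *Npnt*, a ligand of integrin alpha 8 beta 1, fell by 1.77 ± 0.40 (adjusted p = 0.00127, edgeR) from 25 and 45 counts to 16 and 11, and without WT replicate 2 it was not called (-1.34, adjusted p = 0.0912, edgeR). The 2 that rose were *Agrn*, a heparan sulfate proteoglycan that clusters acetylcholine receptors at the neuromuscular junction (0.44 ± 0.11, adjusted p = 0.00213, edgeR), and *Vwa1*, a perlecan-binding protein (0.93 ± 0.27, adjusted p = 0.00829, edgeR). Both were named after their values were seen, and *Vwa1* was not called without WT replicate 1 (0.87, adjusted p = 0.0769, edgeR) or by DESeq2 (adjusted p = 0.0667).

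Of 14 tested genes for laminin receptors and their partners, 3 fell, 5 rose and 6 were not called, with a median of 0.16, beside 23.8% lower and 24.1% higher over all tested genes. *Bcam*, a laminin alpha 5 receptor counted among those that rose, was not called under 4 of 9 alternatives. *Mcam*, an adhesion molecule that binds laminin alpha 4, rose from 24.4 and 24.1 CPM in WT to 87.3 and 80.4 CPM in *Patz1* KO, with a log2 fold change of 1.79 ± 0.10 (adjusted p = 2.39e-10, edgeR). *Dmd* and *Utrn*, whose products link dystroglycan to actin, fell by 1.39 ± 0.13 and 0.68 ± 0.087 on the log2 scale (adjusted p = 1.32e-07 and 5.31e-06, edgeR). *Dag1*, the gene of dystroglycan, had 118 and 113 CPM in WT against 115 and 101 CPM in *Patz1* KO (-0.10 ± 0.091, adjusted p = 0.387, edgeR). *Itgb1*, the beta subunit of most laminin-binding integrins, had a log2 fold change of -0.12 ± 0.097 (adjusted p = 0.317, edgeR), and *Itga6*, one of its partners, fell by 0.59 ± 0.11 (adjusted p = 0.000269, edgeR). *Bcam*, *Dag1*, *Itgb1* and *Itga6* were named after their values were seen.

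Dystroglycan binds laminin through a glycan made by a chain of enzymes. Of 11 such genes tested, 7 rose, 2 fell and 2 were not called, with a median of 0.39. The shares over all tested genes were 24.1% higher and 23.8% lower. *Gtdc2*, which adds a sugar early in the chain, and *Tmem5*, a later xylosyltransferase, rose by 0.71 ± 0.16 and 0.58 ± 0.11 (adjusted p = 0.00127 and 0.000482, edgeR). *Ispd*, which makes the sugar donor CDP-ribitol, fell by 0.99 ± 0.17 on the log2 scale (adjusted p = 0.000103, edgeR), from 181 and 217 counts to 167 and 101.

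Perlecan carries heparan sulfate, which a set of enzymes makes or edits. Of 17 tested genes of these enzymes, 12 were not called, 2 fell and 3 rose, with a median of 0.00. Over all tested genes 23.8% were called lower and 24.1% higher. *Hs6st2*, a sulfotransferase, and *Sulf1*, which removes sulfate outside the cell, fell by 1.27 ± 0.12 and 0.79 ± 0.097 on the log2 scale (adjusted p = 1.93e-07 and 3.03e-06, edgeR). *Ext2*, part of the chain-lengthening polymerase, rose by 0.44 ± 0.097 (adjusted p = 0.00122, edgeR).

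Of 9 tested genes for proteases of the basement membrane and their inhibitors, 6 fell, 2 rose and 1 was not called, with a median of -0.54. Among all tested genes 23.8% were called lower and 24.1% higher. *Mmp2*, a gelatinase that cuts type IV collagen, and *Mmp14*, which activates it, fell by 2.50 ± 0.17 and 1.88 ± 0.15 on the log2 scale (adjusted p = 3.19e-09 and 1.92e-08, edgeR). The inhibitors parted. *Timp1* fell by 2.91 ± 0.35 (adjusted p = 2.98e-06, edgeR), while *Timp3* and *Timp2*, named after their values were seen, rose by 1.22 ± 0.098 and 0.56 ± 0.11 (adjusted p = 2.28e-08 and 0.000311, edgeR).

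**Figure D4:**
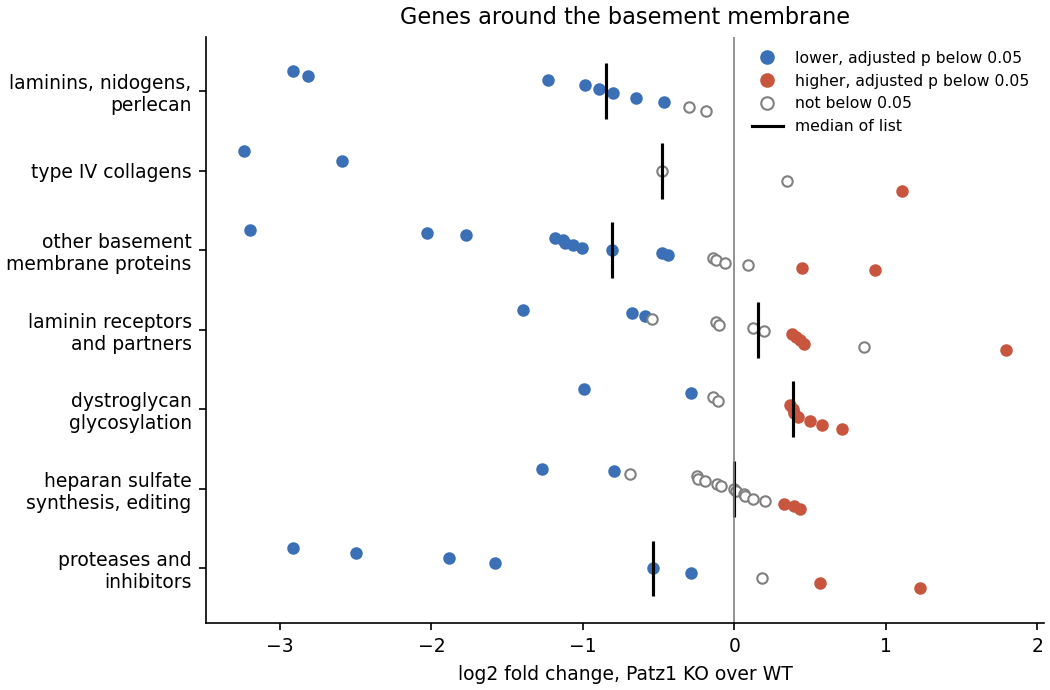
Log2 fold change, *Patz1* KO over WT, of each tested gene of the basement membrane lists, blue for lower and red for higher at an adjusted p below 0.05, open for not called, with a black bar at the median of each list. The 10 genes and the other basement membrane proteins lie mostly left of 0, while the receptors and heparan sulfate enzymes lie on both sides and most dystroglycan glycosylation genes lie to the right.

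Markers of cell types that embryoid bodies can hold differed in direction from list to list. Over all tested genes 23.8% were called lower and 24.1% higher. Of 10 tested endoderm markers (12 listed), 8 were called lower and none higher, and their summed level was 61.5 to 73.4 CPM in WT and 9.32 to 9.66 CPM in *Patz1* KO. All 9 mesenchyme markers, 3 of them fibrillar collagens, were called lower, with sums of 226 to 254 CPM in WT and 39.3 to 46.0 CPM in *Patz1* KO. Of 7 endothelial markers 5 were called lower, with sums of 12.7 to 14.9 and 3.99 to 6.35 CPM. Of 4 tested neural crest and Schwann cell markers (5 listed), 3 were called higher and none lower, with sums of 12.5 CPM in both WT libraries and 28.5 to 43.6 CPM in *Patz1* KO. Of these 3, *Sox10* (0.91 ± 0.37, adjusted p = 0.0489, edgeR) was not called under 6 of 9 alternatives, among them each fit without WT replicate 1, WT replicate 2 or *Patz1* KO replicate 1 (lowest 0.68). Of the other markers called, *Tie1* of endothelium was not called under 4 of 9 alternatives and *Pdgfrb* of mesenchyme under 1. Of 8 MN markers 6 were called higher and none lower, with sums of 600.4 to 640.1 and 843 to 916 CPM, and of 6 neural progenitor markers 3 were called lower and 2 higher. No marker was at 0 in all libraries of a group. The part of these markers in the results for laminins, nidogens and perlecan was not tested.

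**Figure D5:**
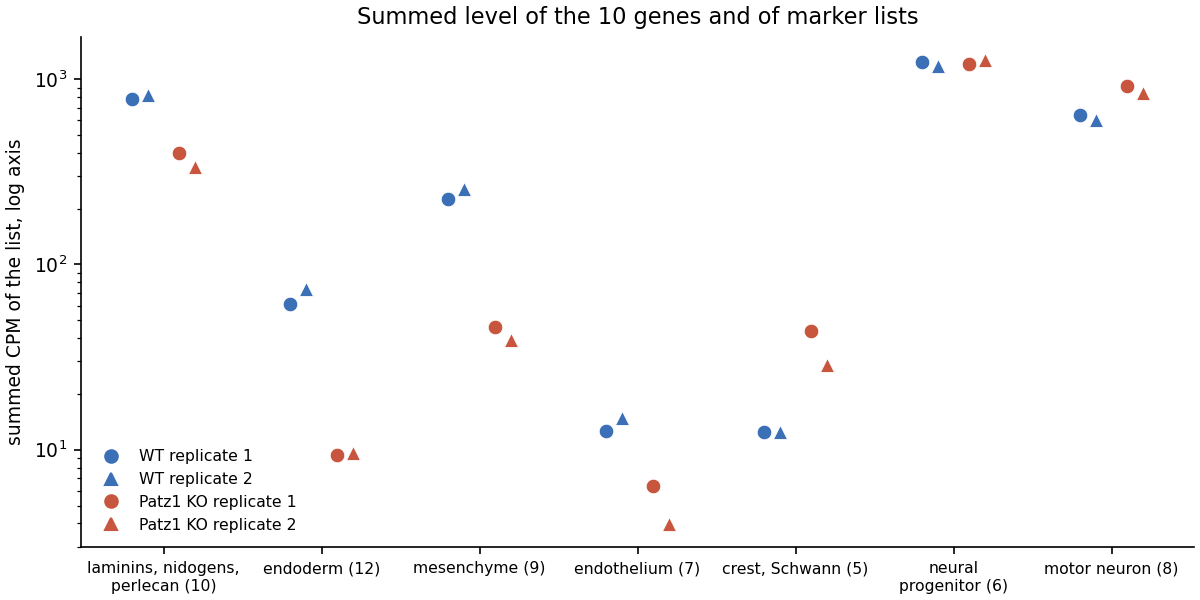
Summed CPM of the 10 genes and of each marker list in each library on a log axis, with the number of genes listed in brackets, WT in blue and *Patz1* KO in red. The sums of the 10 genes and of the endoderm, mesenchyme and endothelium markers are lower in both *Patz1* KO libraries, and those of the crest and MN markers are higher.

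The tested gene nearest to each of the 2 genes that differed most, within 200 kb, was not called. *Dld*, which lies 1633 bases from *Lamb1*, had a log2 fold change of -0.18 (adjusted p = 0.132, edgeR), and *Rtraf*, which overlaps *Nid2*, had the value of -0.00 given above. *Adrm1*, 87 bases from *Lama5*, had -0.04 (adjusted p = 0.750, edgeR), and *Usp19*, 72 bases from *Lamb2*, had -0.06 (adjusted p = 0.625, edgeR). *Arhgap28*, the sole tested neighbour of *Lama1* in that distance, was called lower (-0.47, adjusted p = 0.000371, edgeR). Further genes within 200 kb were called in both directions, and others were not called. *Cbll1* near *Lamb1* (-0.47), *Dhx9* near *Lamc1* (-0.54) and *Wnt4* near *Hspg2* (-1.16) were called lower. *Osbpl2* near *Lama5* (0.42), *Klhdc8b* near *Lamb2* (1.05), *Nmnat2* near *Lamc1* (0.75) and *Rap1gap* near *Hspg2* (1.14) were called higher. They were named after their values were seen, and the part of neighbours in the results was not tested.

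The promoters below are printed for the beta chain pair that parted and for the 3 further genes with a window in the RefSeq table for GRCm38.p6. 6 of the 10 genes had a window of 250 bases before the start, and what lies inside an annotated GENCODE transcript was left out, which removed all of *Lama2*. Capitals mark GGGAGGG, a G-rich string of the kind the PATZ1 and MAZ family binds, and GGGCGGG, the GC box of SP and KLF factors, on either strand, and the 2 may overlap. AGATAA, a site of the endoderm factors *Gata4* and *Gata6*, was searched as well.
*Lamb1* (chr12:31265043-31265233, plus strand): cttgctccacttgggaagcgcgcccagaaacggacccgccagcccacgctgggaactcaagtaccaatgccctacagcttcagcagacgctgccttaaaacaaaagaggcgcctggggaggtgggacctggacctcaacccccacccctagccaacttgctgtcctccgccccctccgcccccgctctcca
*Lamb2* (chr9:108479612-108479735, plus strand): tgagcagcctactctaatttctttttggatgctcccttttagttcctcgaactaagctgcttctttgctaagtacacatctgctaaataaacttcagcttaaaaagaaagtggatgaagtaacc
*Lama5* (chr2:180225860-180226109, minus strand): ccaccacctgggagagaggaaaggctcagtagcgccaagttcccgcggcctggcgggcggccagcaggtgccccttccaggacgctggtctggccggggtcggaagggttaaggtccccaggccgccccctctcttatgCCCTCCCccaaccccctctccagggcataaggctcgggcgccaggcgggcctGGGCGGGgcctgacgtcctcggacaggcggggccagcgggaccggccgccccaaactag
*Nid1* (chr13:13437352-13437550, plus strand): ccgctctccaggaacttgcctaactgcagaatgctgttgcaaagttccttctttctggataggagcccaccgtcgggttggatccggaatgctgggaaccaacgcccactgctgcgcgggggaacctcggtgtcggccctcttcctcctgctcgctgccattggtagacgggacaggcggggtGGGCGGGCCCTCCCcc
*Hspg2* (chr4:137468553-137468768, plus strand): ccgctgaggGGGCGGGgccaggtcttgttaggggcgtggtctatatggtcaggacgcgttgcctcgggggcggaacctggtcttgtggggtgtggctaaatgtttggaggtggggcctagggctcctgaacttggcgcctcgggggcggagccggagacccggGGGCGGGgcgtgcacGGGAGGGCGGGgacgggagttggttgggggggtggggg

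GGGAGGG was found once each in the windows of *Lama5*, *Nid1* and *Hspg2* and in 19.7% of 32851 promoter windows of the same length. GGGCGGG was found in the same 3 windows, 3 times in that of *Hspg2*, and in 23.4% of all windows. Neither was in the windows of *Lamb1*, *Lamb2* or *Lama2*, and AGATAA, found in 9.99% of all windows, was in none of the 6. The windows of *Lamb1* and *Lamb2* had a GC content of 62.0% and 43.6%. A string in a window is a description of its letters and says nothing of binding.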

How the data were processed

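RNA-seq libraries of cervical MN cultures, 2 WT and 2 *Patz1* KO, were grouped by their genotype labels. The authors deposited raw counts per gene symbol. The submitters' processing notes name TopHat2 2.1.1, Bowtie2 2.3.1, featureCounts 1.6.2, DESeq2 and mm10, the paper's methods name Bowtie 2, and the annotation and the strand setting are not given in the sources used here. The reads came from ribosome-depleted total RNA and carry no molecular identifiers, so counting error is the least error.

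Counts were scaled with TMM, filtered with filterByExpr (minimum count 10) and tested with edgeR 4.0.16 (limma 3.58.1, R 4.3.3) by the quasi-likelihood test, adjusted with Benjamini-Hochberg over 14269 genes, on genotype alone. The SE is the absolute log2 fold change over the square root of F. The test was checked on simulated data. With 2 against 2 libraries an exact permutation test cannot go below 0.333, so none was run. Mean levels are given with the SD of 2 libraries. Exon and coding lengths and positions came from GENCODE M21 on GRCm38, the assembly of mm10, with 23012 of 23420 symbols matched. Coding length was taken from GENCODE, since no protein table was used here.

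The 10 genes and all lists were chosen with earlier results of these data known. Named outside the 10 were *Patz1*, other laminin chains, and of each further list the 3 called genes of largest absolute log2 fold change with groups that do not overlap. Of the listed genes, 2 are not reported here by name. The rule also took the 5 genes most like *Lamc1*. Alternatives were scaling by library size alone or by DESeq2's size factors, no filter, DESeq2's Wald test (1.42.0), a replicate block, leaving out each library, and coding length.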

Additional observations from a re-analysis of the deposited data

How the results depend on the processing

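Of 90 values of the 10 genes under the alternatives, 83 kept their direction and their side of the threshold. 4 were no longer called, all of *Lama2*, 2 became called, and 1, *Lama4* without *Patz1* KO replicate 2, turned in direction to 0.0094. In fits with 1 library fewer, which assume that the lone library varies like the other group, the log2 fold change of *Lama4* went from -0.77 to 0.0094, and the number of the 10 called from 7 to 10. DESeq2's Wald test called 7 of the 10 and 5118 of all genes. Without WT replicate 2 the number of all genes called was 4521, against 6836 with every library. The other laminin chains called numbered 0 by DESeq2 and 0 to 1 with a library left out. The deviations of same-numbered libraries had a Pearson r of 0.0304 across 14269 genes. This is a single comparison of replicates and cannot show whether the replicate numbers of the labels pair the samples. The replicate block called 8 of the 10 and 7361 of all genes. With coding length *Lama1* was 88.9% of the alpha chains in WT and 87.1% in *Patz1* KO, *Lama2* was 2.55% and 3.02%, and *Lama4* was 2.06% and 3.12%. *Lama2* and *Lama4* had the fewest counts of the 10, 39 to 163 in a library, and their *Patz1* KO libraries were 6.72 and 3.82 CPM and 4.0 and 2.33 CPM. The cause of their dependence on single libraries was not tested.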

Other observations

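The genes whose pattern over the 4 libraries lay closest to that of *Lamc1*, by the distance of their centred log2 CPM among 9786 genes with a mean of at least 10 CPM, were *Ticrr* (0.0828), *Tln1* (0.0897), *Kif14* (0.0950), *Cacna2d1* (0.0985) and *Gabpb2* (0.101). With 2 libraries in each group, a small distance mostly means a like log2 fold change between the genotypes. Those of the 5 genes ran from -1.23 (*Gabpb2*) to -1.14 (*Kif14*), beside -1.23 for *Lamc1*. Shared regulation was not tested. *Tln1* encodes talin, which links integrins to actin, and had 89.9 and 91.1 CPM in WT and 43.4 and 36.3 CPM in *Patz1* KO. *Ticrr* and *Kif14*, which act in DNA replication and in cell division, had 23.3 and 27.1 CPM against 11.8 and 10.1 CPM, and 18.2 and 20.7 CPM against 9.57 and 7.93 CPM. With a minimum of 1 CPM, 2 of the 5 remained, *Ticrr* and *Tln1*, beside *E2f7*, *A230073K19Rik* and *Fzd4*.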
